A study of Mus musculus with 12 samples.

Results

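Ret, its GDNF family co-receptors and the neurotrophin receptors were followed in primary mouse cortical cells given triiodothyronine (T3), the active thyroid hormone. The 8 genes are the receptor tyrosine kinase gene Ret, the co-receptor genes Gfra1 and Gfra2, the neurotrophin receptor genes Ntrk2, Ntrk3, Ngfr and Sort1, and the neurotrophin gene Bdnf. They were chosen by name from a list of neurotrophic receptors and ligands, and all 8 were found among the 14801 genes of the deposited table. Changes with T3 in these same cultures were known when the list was drawn up, so the changes of the 8 genes are given as a description, with no p-value. The study compared 6 cultures given 10 nM T3 for 24 h with 6 cultures of the same 6 fetuses kept without T3 in parallel, to find the genes that the hormone regulates in these cells. All cultures were wild type. They came from the cerebral cortex at gestational day 17.5 and had grown for 9 days, and all were deprived of the B27 supplement for 24 h before T3 was added. Each fetus, called a mouse here as in the labels, supplied both cultures of a pair.

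Ret is the signalling receptor for the ligands of the GDNF family. It does not bind them alone. A ligand first binds a co-receptor anchored in the membrane by a lipid, GFRα1 for GDNF and GFRα2 for neurturin, and the complex then activates the Ret kinase. Neurotrophins use a separate set of receptors. TrkB, made from Ntrk2, is the kinase receptor for BDNF, and TrkC, made from Ntrk3, is that for neurotrophin 3. The p75 receptor, made from Ngfr, binds all mature neurotrophins, and together with sortilin, made from Sort1, it binds their uncleaved precursors. In the developing cortex these systems act on neuronal survival, migration and the growth of processes.

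The values are reads per gene scaled to the size of the library with the TMM correction of library composition, and are called CPM below. Summed over the 14801 genes of the deposited table, the T3 libraries held 7460586 to 10837895 reads and the no-T3 libraries 5272092 to 8136928. Reads outside these genes are not in these sums. The hormone response was seen in the known T3 target genes: Hr averaged 46.5 ± 2.92 CPM with T3 and 5.49 ± 1.23 CPM without (SD, n = 6 each), and Klf9 65.4 ± 6.60 and 23.7 ± 4.71 CPM (SD, n = 6 each; limma adjusted p = 3.47e-14 and 4.03e-11). Markers of neurons and astrocytes were present in all libraries. The summed level of 6 neuronal markers was 6145 to 7545 CPM with T3 and 6538 to 8539 CPM without, and that of 7 astrocyte markers was 1150 to 3063 CPM with T3 and 763 to 2591 CPM without. The 4 measured microglial markers summed to at most 8.16 CPM in any library. The T3 libraries were the deeper ones in 6 of 6 mice. The no-T3 library of mouse 4 stood apart, with the heart myosin gene Myh7 at 705.8 CPM against at most 3.81 in the other libraries.

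Ret was the gene of the 8 that differed clearly. It was 2.43-fold higher with T3, while Gfra2 was 1.24-fold higher and the other 6 genes lay within 1.15-fold of their level without T3. These folds come from a limma fit on log2(CPM + 0.5) with the mouse as a block, a scale that understates the change of low genes. Its threshold was a Benjamini-Hochberg adjusted p of 0.05 over all 13663 genes tested. Of the 7 genes with enough reads to enter, 2 were past the threshold, Ret and Gfra2, both higher with T3. Among all genes tested 5.52% were past it, 3.37% higher with T3 and 2.14% lower. Ngfr had too few reads and did not enter. The ranges of the 6 T3 and the 6 no-T3 cultures did not overlap for 1 of the 7, Ret, and this held for 1.68% of all genes tested. All 6 mice moved one way for 2 of the 7, Ret and Gfra2, and for 10.8% of all genes tested. The median log2 change of the 7 was 0.018, and that of all genes tested 0.0031. In these bulk samples more cells of a type and more RNA per cell cannot be told apart.

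**Figure D1:**
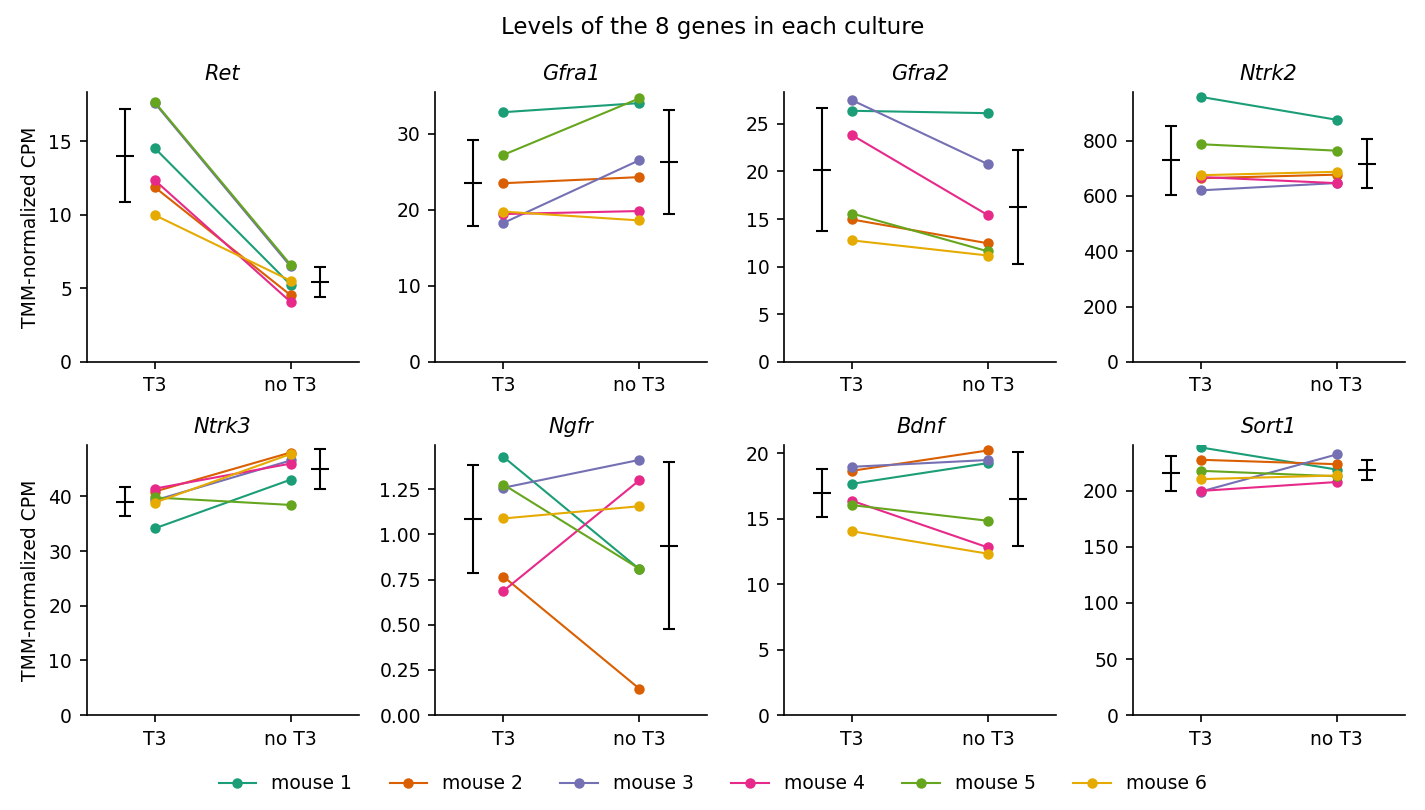
TMM-normalized CPM (vertical axes, starting at 0) of each of the 8 genes in the T3 and no-T3 culture of each mouse, with the cultures of a mouse joined by a line and the mean and SD of 6 cultures in black beside them. The Ret lines all fall from left to right, between 9.99 and 17.7 CPM with T3 and between 4.08 and 6.61 CPM without, while the groups overlap for the other 7 genes.

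Ret (ENSMUSG00000030110) lies on chromosome 6 from 118151745 to 118197718 of GRCm38, on the minus strand, and no annotated gene overlaps its exons. Its level in the T3 cultures was 9.99 CPM at the lowest, 13.5 at the median and 17.7 at the highest, against 4.08, 5.39 and 6.61 CPM in the no-T3 cultures. The lowest T3 culture therefore lay above the highest no-T3 culture. These values rest on 93 to 194 reads per T3 library and 22 to 49 reads per no-T3 library. The fitted log2 change was 1.28 (SE 0.114), the 12th largest increase of all genes tested. The differences of the 6 mice rest on few reads without T3, and counting error was not set apart from differences between mice. The log2 difference was 1.30 to 1.49 in mice 1 to 5 and 0.80 in mouse 6, whose T3 culture had the lowest Ret level of the T3 cultures, 9.99 CPM, and whose no-T3 culture, with 5.52 CPM, was near the median. Without mouse 6 the fitted log2 change was 1.38 (SE 0.116). Without mouse 4, whose no-T3 library stood apart, it was 1.24 (SE 0.121).

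Markers of the oligodendrocyte lineage moved in the same direction as Ret. Their summed level over 6 genes was 394.3 to 497 CPM with T3 and 291.6 to 438.2 CPM without, higher with T3 in 6 of 6 mice, and 3 of the 6 genes rose in the limma fit. For this and the counts below, 3.37% of all genes tested rose in that fit and 2.14% fell. The oligodendrocyte rise was largest in mouse 6, from 291.6 CPM without T3 to 394.3 with it. The Ret difference of that mouse was the smallest, on 101 reads with T3 and 43 without. This is 1 mouse, and the relation of these values was not tested. The astrocyte markers were higher with T3 in 6 of 6 mice as well, and 4 of 6 tested rose. The neuronal sum was lower with T3 in 5 of 6 mice, with 1 of 6 tested genes higher. Excitatory neuron markers summed to 864.9 to 1142 CPM with T3 and 977.4 to 1214 CPM without, lower in 5 of 6 mice, and 2 of 5 tested fell. Inhibitory neuron markers summed to 697.2 to 1002 CPM with T3 and 842.8 to 926.7 CPM without, lower in 4 of 6 mice, and 1 of 7 tested fell. Markers of mural cells and meningeal fibroblasts summed to 61.2 to 224.2 CPM with T3 and 108.8 to 508.8 CPM without, the highest being the no-T3 library of mouse 4. They were lower with T3 in 5 of 6 mice, and 1 of 8 tested fell. Neural progenitor markers were lower with T3 in 4 of 6 mice, and none of 6 tested was past the threshold. Neural crest and Schwann cell markers were lower in 4 of 6 mice as well, with none of 3 tested past it. The part of these shifts in the Ret difference was not tested.

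The genes next to Ret on chromosome 6 did not pass the test. The nearest tested gene was Csgalnact2, which makes chondroitin sulfate, 12.6 kb from Ret, with 24.0 ± 1.90 CPM with T3 and 22.8 ± 2.29 CPM without (SD, n = 6 each; limma adjusted p = 0.731). Rasgef1a lay 60.2 kb away on the same side and the processed pseudogene Gm4875, whose reads may belong to its parent gene, 154 kb away. On the other side Bms1, Zfp248 and Zfp9 lay 186 to 264 kb away. The log2 changes of these 6 genes ran from -0.063 to 0.12 (limma adjusted p from 0.382 to 0.81).

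**Figure D2:**
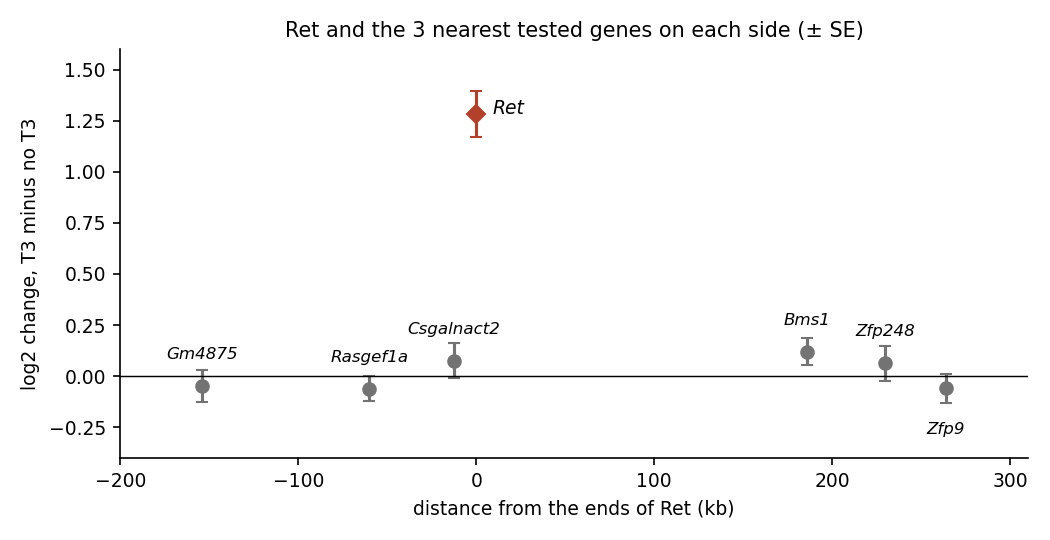
Fitted log2 change, T3 minus no T3, with its SE (vertical axis) of Ret and of the 3 nearest tested genes on each side, by distance from the ends of Ret in kb (horizontal axis). Ret stands at 1.28 and its 6 neighbours between -0.063 and 0.12.

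The genes whose level was most like that of Ret were found by the Pearson correlation of log2(CPM + 0.5) over the 12 libraries. The libraries come from 6 mice and differ by T3, so a gene that follows the hormone scores high. The 5 closest were Nrarp, a Notch target that damps Notch signalling (r = 0.958), Actr3b, a subunit of an actin nucleation complex (r = 0.952), the muscarinic acetylcholine receptor gene Chrm3 (r = 0.948), Gpr17, an orphan receptor of immature oligodendrocytes (r = 0.944), and Chst11, a chondroitin sulfotransferase (r = 0.943). All 5 were higher with T3, by 0.28 to 1.24 on the log2 scale. Their choice by likeness to Ret favours this, so no p-value is given for them. Gpr17 averaged 16.7 ± 3.20 CPM with T3 and 6.85 ± 1.52 CPM without (SD, n = 6 each), and is also one of the oligodendrocyte lineage markers counted above. An antisense gene covers 79.4% of the Nrarp exons, and their reads cannot be told apart.

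Of the co-receptors, Gfra2 was slightly higher with T3 and Gfra1 was not past the threshold. Gfra2 (ENSMUSG00000022103; chromosome 14, 70890120 to 70979838) had 12.8 CPM at the lowest, 19.7 at the median and 27.5 at the highest in T3 cultures, against 11.2, 13.9 and 26.1 CPM in no-T3 cultures. The ranges of the groups overlapped almost fully. Within each mouse the T3 culture was the higher, by 0.014 on the log2 scale in mouse 1 up to 0.61 in mouse 4, and the fitted log2 change was 0.31 (SE 0.089). The call of Gfra2 held with edgeR, which called 5.72% of all genes tested. It was lost without the mouse as a block (1.3% of all genes called), with DESeq2 (4.13%) and with limma-voom (5.84%). It was also lost when any of mouse 2 to mouse 6 was left out, with log2 changes of 0.25 to 0.34 in those 5 fits. The lowest of these was the fit without mouse 4.

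Gfra1 (ENSMUSG00000025089; chromosome 19, 58235604 to 58455909) had 18.3 CPM at the lowest, 21.7 at the median and 32.9 at the highest with T3, against 18.6, 25.4 and 34.7 CPM without. It was lower with T3 in 5 of 6 mice, but by under 0.06 on the log2 scale in mice 1, 2 and 4, and by 0.53 and 0.34 in mice 3 and 5. The fitted log2 change was -0.15 (SE 0.084), and -0.077 without mouse 3. An antisense gene, Gm16277, covers 7.6% of the Gfra1 exons, and the library kit did not mark strand.

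Neither neurotrophin kinase receptor gene was past the threshold. Ntrk2 (ENSMUSG00000055254; chromosome 13, 58806569 to 59133970) had 620.4 CPM at the lowest, 671.8 at the median and 958.2 at the highest with T3, against 646.3, 682.3 and 875.4 CPM without. The groups overlapped, 3 mice were higher and 3 lower, and the fitted log2 change was 0.018 (SE 0.044). With 3483 to 8637 reads per library this was the most precise of the 8 changes. Ntrk2 also makes receptors that lack the kinase, which are the main form in astrocytes, and counts per gene do not separate them.

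Ntrk3 (ENSMUSG00000059146; chromosome 7, 78175959 to 78738012) had 34.2 CPM at the lowest, 39.5 at the median and 41.4 at the highest with T3, against 38.5, 46.3 and 48.0 CPM without. It was lower with T3 in 5 of 6 mice and 0.05 higher on the log2 scale in mouse 5, whose no-T3 culture had the lowest level of its group. The fitted log2 change was -0.20 (SE 0.065), and it was not past the threshold. Without mouse 5 it was -0.25 (SE 0.069) and past the threshold.

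Ngfr and Sort1 encode the receptors that bind precursors of neurotrophins. Ngfr (ENSMUSG00000000120; chromosome 11, 95568818 to 95587735) was near the limit of detection, with 6 to 14 reads per T3 library and 1 to 10 reads per no-T3 library. Its levels were 0.687 to 1.43 CPM with T3 and 0.146 to 1.41 CPM without. In the fit without a filter on low values its log2 change was 0.20 (SE 0.224), and it was not past the threshold. A count of 0 would allow up to 0.273 to 0.557 CPM in these libraries, counting error only, and the no-T3 library of mouse 2 lay below its own limit of 0.439 CPM. Sort1 (ENSMUSG00000068747; chromosome 3, 108284082 to 108361511) had 199.3 CPM at the lowest, 214.1 at the median and 238.6 at the highest with T3, against 207.8, 216.3 and 232.4 CPM without. The groups overlapped and the fitted log2 change was -0.020 (SE 0.051). An antisense gene, Gm12523, covers 4.47% of the Sort1 exons. The Sort1 protein also sorts cargo from the Golgi apparatus to lysosomes in many cell types.

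Bdnf (ENSMUSG00000048482; chromosome 2, 109674700 to 109727007), the ligand of TrkB, had 14.0 CPM at the lowest, 17.0 at the median and 19.0 at the highest with T3, against 12.3, 17.1 and 20.2 CPM without. It was higher with T3 in 3 mice and lower in 3, and the fitted log2 change was 0.060 (SE 0.088). Its largest difference, 0.34 on the log2 scale, was in mouse 4, and without that mouse the fitted change was 0.0036. An antisense gene, Gm45346, covers 14.4% of the Bdnf exons.

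Bdnf is transcribed from several start sites, each with its own first exon, and a count per gene sums over them. The RefSeq promoter table on GRCm38.p6 gave 7 Bdnf windows, and also held Gfra1, Ngfr and Ntrk2, while Ret, Gfra2, Ntrk3 and Sort1 were not analysed in this respect. The 250 bases before each start were searched on both strands for AGGTCA, the core motif bound by thyroid hormone receptors, and for ACGTCA, the core of the cyclic AMP response element through which neuronal activity acts on Bdnf. These motifs share their last 4 letters. AGGTCA was in 1 of the 7 Bdnf windows and in 14.0% of all 32851 windows of the table, and ACGTCA was in 1 of 7 and in 6.47%. The windows of Gfra1, Ngfr and Ntrk2 held neither. The 2 Bdnf windows are shown because they held a motif. For AGGTCA, 1 of 7 is about the share of all windows. The capitals mark the motif, which begins at position -50 in the window with AGGTCA and at -36 in that with ACGTCA, counted back from the start site. A match of letters is a description and does not show binding.
Bdnf, chr2:109692777-109693026, plus strand: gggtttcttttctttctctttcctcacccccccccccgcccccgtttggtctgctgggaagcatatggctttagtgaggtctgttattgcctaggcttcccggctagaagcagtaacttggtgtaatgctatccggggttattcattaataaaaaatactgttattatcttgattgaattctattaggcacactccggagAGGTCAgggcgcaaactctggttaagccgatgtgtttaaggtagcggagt
Bdnf, chr2:109692186-109692435, plus strand: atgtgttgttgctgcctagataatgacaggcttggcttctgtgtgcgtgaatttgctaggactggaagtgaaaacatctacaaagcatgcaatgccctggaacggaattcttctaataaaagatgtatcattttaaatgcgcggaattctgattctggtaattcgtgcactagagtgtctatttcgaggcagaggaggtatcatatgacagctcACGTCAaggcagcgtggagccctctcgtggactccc

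**Figure D3:**
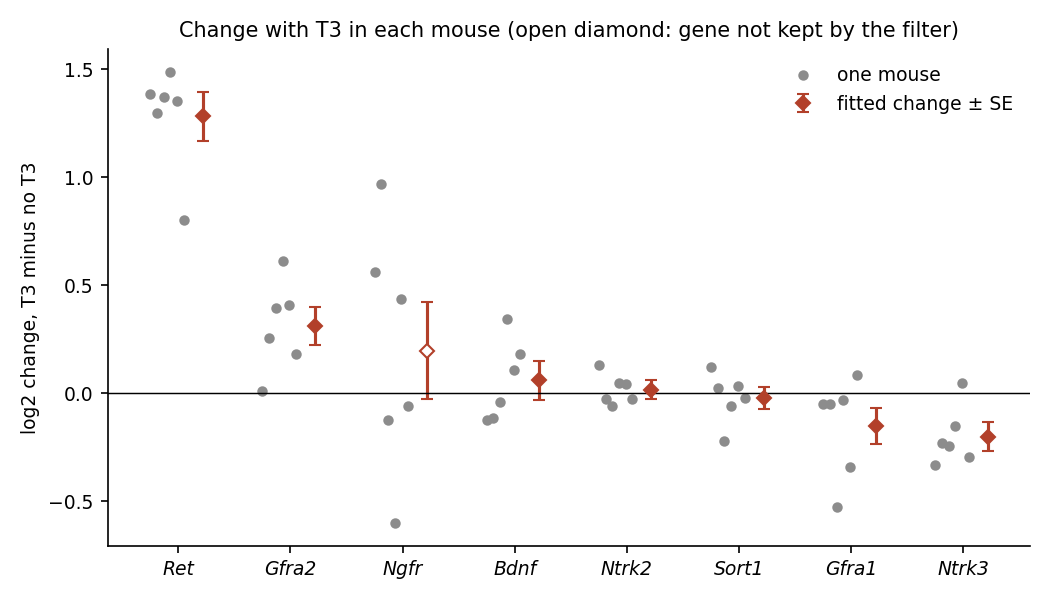
Log2 change, T3 minus no T3 (vertical axis), of the 8 genes in each of 6 mice (grey points) and as fitted with its SE (red diamonds), ordered from the largest increase to the largest decrease. Mouse 6 lies at 0.80 for Ret, below the other mice at 1.30 to 1.49, and only Ret and Gfra2 have all 6 points above 0. The open diamond of Ngfr comes from the fit without a filter on low values.

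Divided by exon length, the 8 genes spanned over 2 orders of magnitude. The order in T3 cultures was Ntrk2 (37.8 ± 6.49 CPM per kb of exon), Sort1 (28.5 ± 2.06), Gfra2 (5.70 ± 1.82), Gfra1 (4.30 ± 1.03), Bdnf (2.73 ± 0.297), Ret (2.07 ± 0.468), Ntrk3 (1.30 ± 0.086) and Ngfr (0.315 ± 0.0865) (SD, n = 6 each). In no-T3 cultures it was Ntrk2 (37.1 ± 4.62 CPM per kb of exon), Sort1 (28.8 ± 1.16), Gfra1 (4.81 ± 1.25), Gfra2 (4.59 ± 1.70), Bdnf (2.65 ± 0.576), Ntrk3 (1.49 ± 0.121), Ret (0.801 ± 0.150) and Ngfr (0.272 ± 0.134). Per kb of exon, Ret thus stood above Ntrk3 in 6 of 6 mice with T3 and below it in 6 of 6 mice without. The order with T3 rests on the lengths used, 30170 bases for Ntrk3 and 6763 for Ret. In CPM not divided by length Ntrk3 was the higher, with means of 39.1 against 14.0 with T3. Which transcripts the cells make was not measured. The neighbours Gfra2 and Gfra1 overlapped in both groups, Bdnf and Ret overlapped with T3, and Gfra2 and Bdnf overlapped without T3. The other neighbours in either order had ranges that did not overlap. With the longest transcript as the length, Ret and Ntrk3 stood at 2.57 and 1.98 CPM per kb with T3, in the same order, but their ranges overlapped and Ret was above Ntrk3 in 5 of 6 mice. By that length Gfra1 and Bdnf overlapped with T3 while Bdnf and Ret did not, and Ntrk2 was at 83.4 CPM per kb with T3 and 81.9 without.

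**Figure D4:**
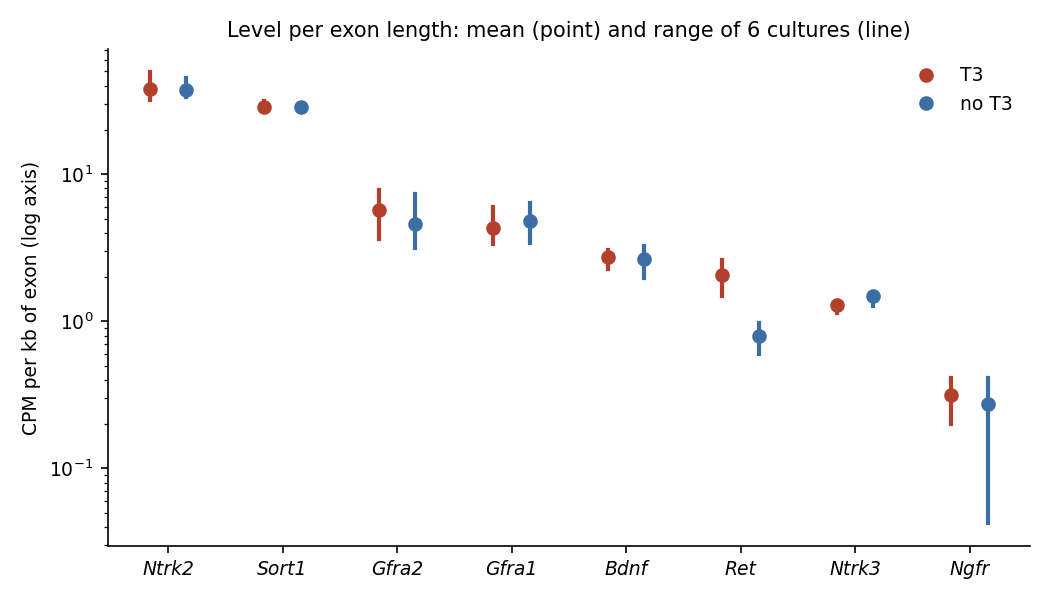
Level per kb of exon on a log axis for the 8 genes in T3 (red) and no-T3 (blue) cultures, with points for the mean and lines for the range of 6 cultures. The ranges of the groups are separate for Ret, at 2.07 with T3 and 0.801 without, and overlap for the other 7 genes.

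The cultures of a group differed from each other more in some of these genes than in others. Each mouse gave 1 culture per group, so differences between mice and between cultures cannot be told apart. With T3 the coefficient of variation over 6 cultures was 32.0% for Gfra2, 27.5% for Ngfr, 24.0% for Gfra1, 22.6% for Ret, 17.2% for Ntrk2, 10.9% for Bdnf, 7.24% for Sort1 and 6.64% for Ntrk3. Without T3 it was 49.1% for Ngfr, 36.9% for Gfra2, 26.0% for Gfra1, 21.7% for Bdnf, 18.8% for Ret, 12.4% for Ntrk2, 8.14% for Ntrk3 and 4.04% for Sort1. Counting error is part of these values and weighs most in genes with few reads. Ngfr had at most 14 reads in a library and Ret 22 to 49 reads per no-T3 library, against 3483 or more for Ntrk2. Mouse 1 had the highest Ntrk2 level in both groups, 958.2 CPM with T3 and 875.4 CPM without, and also the highest sum of astrocyte markers in both, 3063 and 2591 CPM. Mouse 6 had the lowest Gfra2 and Bdnf levels in both groups. By the same measure of likeness as for Ret, the closest gene was Ak3 for Ntrk2 (r = 0.98), Tmem209 for Gfra1 (r = 0.96), Zscan18 for Ntrk3 (r = 0.949), Syt11 for Bdnf (r = 0.931), Mir124a-1hg for Gfra2 (r = 0.923) and Rab3gap1 for Sort1 (r = 0.826), each over 12 libraries. None of these 6 genes passed the test for T3 (limma adjusted p from 0.0777 to 0.861). Each was chosen by its likeness to a gene with a small T3 change, which favours this outcome. Genes on the other strand cover 22.9% of the Ak3 exons.

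The rest of the pathway was counted over 7 lists. Of 103 other ligands, receptors, processing enzymes, adaptors, inhibitors and targets, 92 had values and 90 were tested. The 5 genes Sorl1, Gas1, Npy, Pcsk5 and Rapgef1 rose and the 2 genes Ntf3 and Hap1 fell, 7.78% of the 90 against 5.52% of all genes tested. The 7 lists were also drawn up with earlier results of these data known, so this share and the tests of their genes are read as description. The median log2 change of the 90 was 0.0048, and that of all genes tested 0.0031.

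Among the neurotrophins and their other receptors, 1 of 7 tested rose and 1 fell. Sorl1, a sorting receptor related to sortilin, rose to 190.1 ± 10.6 CPM with T3, against 118.8 ± 9.24 CPM without (SD, n = 6 each; log2 change 0.68, SE 0.051, limma adjusted p = 4.7e-08). It was higher in 6 of 6 mice and its groups did not overlap. Ntf3, the ligand of TrkC, fell to 14.6 ± 3.00 CPM with T3, against 21.0 ± 3.70 CPM without (SD, n = 6 each; log2 change -0.51, SE 0.123, limma adjusted p = 0.0197). It was lower in 6 of 6 mice, by 0.022 to 1.13 on the log2 scale, and its call was lost without mouse 5 or mouse 6, with log2 changes from -0.61 to -0.39 over the 6 fits that left out a mouse. The sortilin relatives Sorcs1, Sorcs2 and Sorcs3 had log2 changes of -0.21, 0.095 and 0.096 and did not pass.

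Of the GDNF ligands and other receptors, 1 of 4 tested rose and none fell. Gas1, a membrane protein related to the GFRα co-receptors that can bind Ret, rose to 30.8 ± 12.0 CPM with T3, against 23.3 ± 9.61 CPM without (SD, n = 6 each; log2 change 0.42, SE 0.085, limma adjusted p = 0.00405), higher in 6 of 6 mice. An antisense gene covers 19.9% of its exons. The ligand gene Gdnf had 3 to 11 reads per T3 library and 4 to 8 reads per no-T3 library, too few to enter the fit, with 0.710 ± 0.293 CPM with T3 and 0.837 ± 0.335 CPM without (SD, n = 6 each). Gfra4, the co-receptor for persephin, had 20.9 ± 0.490 and 20.6 ± 1.44 CPM with and without T3 (SD, n = 6 each; limma adjusted p = 0.919). Ncam1, an adhesion molecule that can bind GDNF without Ret, and Sdc3, a heparan sulfate proteoglycan that binds it, had log2 changes of -0.093 and 0.013 and did not pass.

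Of 9 tested genes for the processing and release of neurotrophin precursors, 1 rose and 1 fell. Pcsk5, a precursor-cleaving protease, rose by a log2 change of 0.29 (SE 0.084, limma adjusted p = 0.0479), with 31.7 ± 2.20 CPM with T3 and 26.0 ± 3.03 CPM without (SD, n = 6 each), in 5 of 6 mice. Its call was lost in 9 of 14 other settings. Hap1, which carries BDNF vesicles along microtubules, fell to 49.0 ± 5.25 CPM with T3, against 65.3 ± 14.8 CPM without (SD, n = 6 each; log2 change -0.38, SE 0.082, limma adjusted p = 0.00834), lower in 6 of 6 mice.

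Downstream of the receptors, 1 of 28 adaptors and effectors rose. This was Rapgef1, a guanine nucleotide exchange factor recruited by Crk adaptors, with 225.4 ± 15.4 CPM with T3 and 197.8 ± 15.2 CPM without (SD, n = 6 each; log2 change 0.19, SE 0.053, limma adjusted p = 0.0417), whose call was lost when any of mouse 2 to mouse 5 was left out. None of the 28 fell. Of 15 adaptors and partners of the p75 receptor and of 13 feedback inhibitors of receptor tyrosine kinases none passed in limma, where 2 and 1 of them had an unadjusted p under 0.05. Of 14 genes known to be induced by neurotrophins 1 rose, the neuropeptide gene Npy, with 29.6 ± 7.05 CPM with T3 and 23.5 ± 6.45 CPM without (SD, n = 6 each; log2 change 0.34, SE 0.090, limma adjusted p = 0.0268), higher in 5 of 6 mice. Its call was lost when any of mouse 3 to mouse 6 was left out, with log2 changes from 0.28 to 0.44 over the fits that left out a mouse. Egr1, Fos and Arc, immediate early genes of that list, had log2 changes of 0.039, 0.12 and 0.073 and did not pass.

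**Figure D5:**
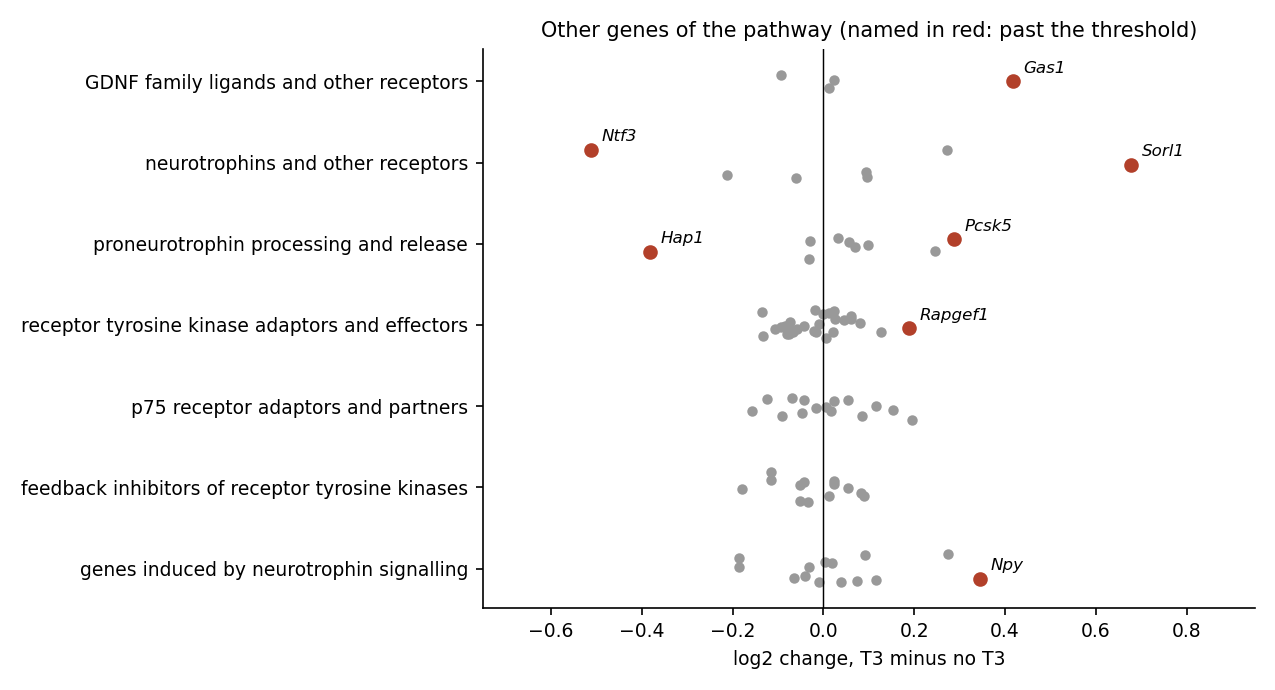
Log2 change, T3 minus no T3 (horizontal axis), of the 90 tested genes of 7 pathway lists (rows). The 7 genes past the threshold are named and red, with Sorl1 at 0.68 the farthest to the right and Ntf3 at -0.51 the farthest to the left.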

How the data were processed

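RNA of 12 cultures was sequenced as single reads of 75 bases with a kit that does not mark strand, per the labels' protocols. Per the submitters' processing notes, the tools were CASAVA, FastQC, Bowtie, TopHat, HTSeq and edgeR, and the build GRCm38; their versions and settings were not given. The deposited signal is TMM-normalized by the authors, per the file headers, and was read as CPM. Divided by what 1 read is worth in its library, every value came out whole within 0.01 reads (100%), so reads could be recovered. Genes were kept by filterByExpr of edgeR 4.0.16 on those reads (13663 kept, 1138 removed). Changes were tested with limma 3.58.1 (R 4.3.3) on the log2(CPM + 0.5) scale, with trend, robust estimation and mouse as a block, two-sided, with Benjamini-Hochberg adjustment over all genes and a threshold of 0.05. This scale understates the change of low genes. The plan allowed for raw counts, and the count tests of edgeR and DESeq2 1.42.0 on the recovered reads were alternatives. edgeR called 782 genes. The series' design ties both cultures to 1 fetus, and deviations from group means of paired libraries correlated at 0.274 to 0.67. The T3 and no-T3 libraries of different mice had a median of -0.136. Their highest value, 0.421, was above that of the lowest pair, mouse 4. Replicates differed beyond sampling noise (chi-square per degree of freedom 2.41 to 18.1). Gene positions, exon lengths and exon overlaps were read from the mouse annotation GENCODE M21 (GRCm38). Symbols matched 14648 of 14801 identifiers. The members, gene lists and rules were chosen with earlier results of these data known. Named were the 8 genes, all pathway genes past the threshold, Gdnf and Ntf3, the known targets Hr and Klf9, the 3 tested genes on each side of Ret, and the genes most correlated with each member. Pathway genes named beyond this rule were chosen after their values were seen. Some items that the rule names are not reported here. The fit was also run on simulated counts that held T3 changes but no differences between mice. That run does not test the use of the mouse as a block, and its outcome is not given here.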

Additional observations from a re-analysis of the deposited data

Results flagged for a closer look

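Of 24 groups of 6 values examined for the 8 genes, 2 held a value far from the other 5. Chance alone gives this in about 1 of 20 groups. The log2 difference of Ret in mouse 6 was 0.80, while the other 5 mice lay between 1.30 and 1.49. Mouse 6 had 101 Ret reads with T3 and 43 without, and the part of counting error was not tested. The Ntrk3 level of mouse 1 with T3 was 34.2 CPM, while the other 5 T3 cultures lay between 38.9 and 41.4 CPM.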

How the results depend on the processing

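The counts of calls and the log2 changes of tested genes were recomputed in 14 other settings and the levels per kb in 7. The change of Ngfr comes from the fit without the filter alone, and the correlations, marker sums and promoter counts were not recomputed. Without a replicate block 178 genes were past the threshold in all, 1 of the 8 genes (Ret) and 1 pathway gene (Sorl1). With DESeq2 and with limma-voom 1 of the 8 genes was past it. Leaving out each mouse in turn gave 458 to 860 genes in all, the fewest without mouse 3, 1 to 2 of the 8 genes, and 4 to 6 pathway genes, the 4 without mouse 4, mouse 5 or mouse 6. Ret was past the threshold in all 14 settings, with log2 changes from 1.21 to 1.38, and Sorl1 likewise, with 0.66 to 0.71. Sort1 ran from -0.048 to 0.021 and Ntrk2 from -0.0044 to 0.034. Without the block the calls of Gas1, Hap1, Ntf3, Npy, Rapgef1 and Pcsk5 were lost, and with DESeq2 those of Npy and Pcsk5. The cause of these losses was not tested. Depth limits Ngfr and Gdnf.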
